A study of Mus musculus with 6 samples.

Results

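Macrophage identity and polarization genes were followed in the poly(A) RNA of mesenchymal stem cells (MSCs), the stromal progenitors of bone-forming cells, kept in osteogenic medium for 7 days. The 40 genes were chosen by symbol as known macrophage genes, by no threshold on a measured value but with earlier results of these data known. All 40 were among the 20071 genes counted. Of these, 29 mark macrophages in general (pan-macrophage genes), 7 are typical of tissue-resident macrophages and 4 are used to describe how macrophages are polarized. The cells came from the femoral bone marrow of 6-week-old mice and were induced with ascorbic acid at 50 μg/mL, β-glycerophosphate at 5 mM and dexamethasone at 100 nM. Control mice were Pcif1fl/fl, with both alleles of Pcif1 floxed and no Cre, and their conditional knockout littermates were Prrx1-Cre;Pcif1fl/fl, with 3 libraries of each genotype, called controls and knockouts here. Pcif1 encodes the methyltransferase that places N6,2′-O-dimethyladenosine next to the mRNA cap. The Prrx1 enhancer drives Cre in limb mesenchyme and its descendants, so the gene was to be deleted in the stromal cells and not in blood-derived cells. Genotypes are those given by the labels throughout, and values are listed in the order of replicates 1, 2 and 3, controls before knockouts.

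Macrophages are phagocytes of the blood lineage that settle in every tissue, and bone marrow holds several kinds, among them cells that clear dying blood cells and line bone surfaces. They recognise antibody-coated and complement-coated particles through Fc and complement receptors, bind lipids and debris through scavenger receptors, and destroy what they take up with lysosomal enzymes and the phagocyte oxidase. The transcription factor PU.1, encoded by Spi1, directs much of this programme. In adherent cultures of marrow, macrophages attach to plastic alongside stromal cells, and a step that depletes them is not given in the sources used here.

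The libraries held between 20258209 and 28227696 counts. Mitochondrial genes took between 1.40% and 1.57% of the counts in 5 libraries and 3.63% in Pcif1fl/fl replicate 3, and the macrophage genes whose call changed without that library are given with their values. Pcif1 itself lay at 42.8, 41.7 and 39.3 CPM (counts per 1000000) in the controls and 39.2, 37.8 and 39.7 CPM in the knockouts, with a log2 fold change of -0.085 ± 0.092 (SE) and an adjusted p of 0.645, by the quasi-likelihood test of edgeR with p adjusted after Benjamini and Hochberg over all genes tested, and a count over the whole gene does not tell whether the floxed part was read. Xist, which is transcribed from the silenced X of female cells, stood at 232, 318 and 443 CPM in the controls and under 1.80 CPM in the knockouts, and the Y-linked Ddx3y was at 48.4, 60.2 and 62.2 CPM against 100.2, 104 and 99.1 CPM. Sex composition and genotype therefore cannot be told apart in any difference reported here, and 2 of the 40 genes, Cybb and Vsig4, lie on the X chromosome.

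Macrophage transcripts were abundant in cultures labelled as MSCs. Lyz2, which encodes the lysozyme of macrophages and other myeloid cells, had the highest count of all genes in each of the 6 libraries. It took between 2.25% and 2.59% of the counts in the controls and between 2.18% and 2.59% in the knockouts. Together the 40 genes took 4.84%, 4.86% and 4.59% of the counts in the controls and 4.88%, 4.65% and 4.60% in the knockouts, a mean of 4.76% ± 0.147 (SD, n = 3) against 4.71% ± 0.149 (SD, n = 3). The ranges of the genotypes overlapped, and the difference between the means was smaller than either SD. In these bulk samples, fewer macrophages and less macrophage RNA per cell cannot be told apart.

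Summed over each cell-type gene list, the 40 macrophage genes lay between 46484 and 47950.1 CPM in the controls and between 46149 and 49521 CPM in the knockouts. Lists differ in length, and about as much of this sum came from Lyz2 as from the other 39 genes, so sums of different lists give no ranking of cell types. Over 14 mesenchymal genes the sum was between 12463 and 15827 CPM in the controls and between 15529.8 and 16746 CPM in the knockouts, most of it from the collagen genes Col1a1, Col1a2 and Col3a1 and from Cxcl12. Prrx1, the stromal factor whose enhancer drives the Cre, was between 211 and 283 CPM, while Bglap, which encodes the osteocalcin of mature osteoblasts, was at 0.249 CPM or less in every library. The counting tool is not known and the study measured Bglap by qRT-PCR in such cultures, so this low count does not show that osteocalcin RNA was absent. The 11 neutrophil genes summed to 15.3 to 19.97 CPM in the controls and 17.6 to 22.6 CPM in the knockouts, with the defining Ly6g and Mpo at 0 in 5 of 6 libraries each. Lymphocyte genes summed to no more than 4.23 CPM, mast cell genes to no more than 3.84 CPM and erythroid genes to no more than 0.722 CPM in any library, and the B-cell gene Ms4a1 and the natural killer gene Nkg7 were at 0 in all 3 controls. Endothelial genes summed to between 63.1 and 80.5 CPM in the controls and between 80.2 and 82.7 CPM in the knockouts. Ly6c1 was the largest part of that sum, at 40.7, 31.1 and 35.9 CPM and 48.0, 52.1 and 46.6 CPM. Cdh5 lay below every control, at 12.4, 10.4 and 16.1 CPM against 8.24, 8.41 and 8.08 CPM. Of the 8 endothelial genes, 4 had a negative log2 fold change and 4 a positive one, and none passed in edgeR's test.

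**Figure D1:**
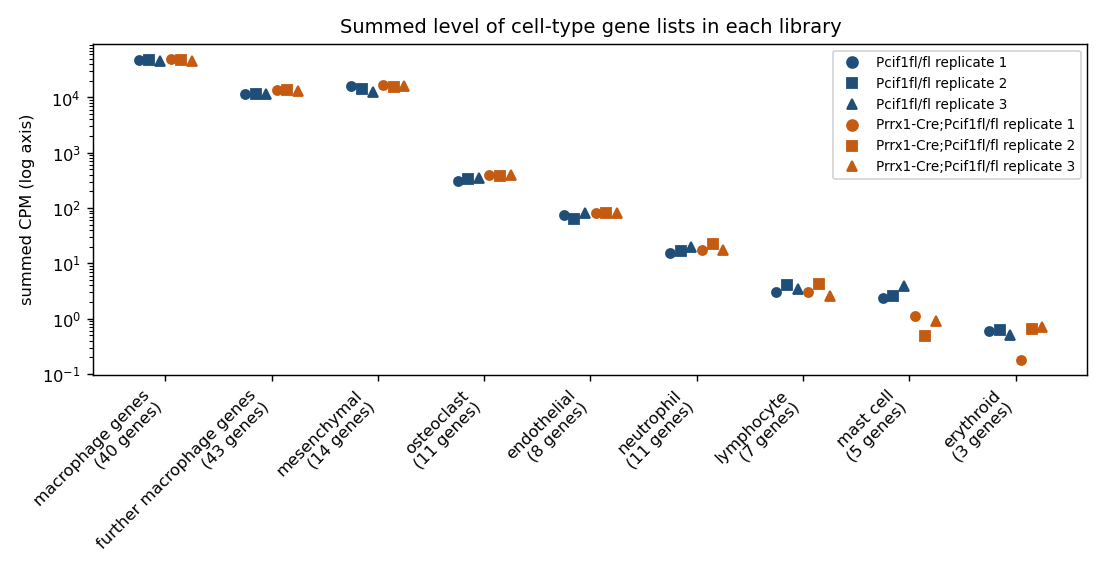
Summed level of each cell-type gene list (CPM, log axis) in each of the 6 libraries, blue for Pcif1fl/fl and orange for Prrx1-Cre;Pcif1fl/fl, with circles, squares and triangles for replicates 1, 2 and 3. The 40 macrophage genes stand at the left, and neutrophil, lymphocyte, mast cell and erythroid genes lie at 22.6 CPM or less in sum in every library.

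Compared per kilobase of exon, the levels of the 40 genes spanned the whole range of expression. Lyz2 had a mean level of 18321 CPM per kb over the 6 libraries, 12.4 times that of C1qb at 1481, followed by C1qa at 1343, C1qc at 893, Mpeg1 at 665, Cd68 at 644 and Gpnmb at 643 CPM per kb. Lyz2 has a near-identical neighbour, Lyz1, at 6.17 to 8.64 CPM, so the split of reads between them is uncertain, but Lyz1 was too low to move the order. By CPM, 8 of the 40 genes ranked among the 100 highest of all genes, 28 had a mean above 100 CPM, 8 lay between 10 and 100 CPM and 4 below 10 CPM. The low genes were Aif1, Folr2, Nos2 and Timd4. Nos2 had 5, 4 and 4 counts in the controls and 3, 0 and 0 counts in the knockouts, and Timd4 had 1 count in a single control library and 0 in the other 5, so neither passed the filter on low counts. A library with 0 counts allows a level of up to 3 counts, between 0.106 and 0.148 CPM at these depths, by counting error only.

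**Figure D2:**
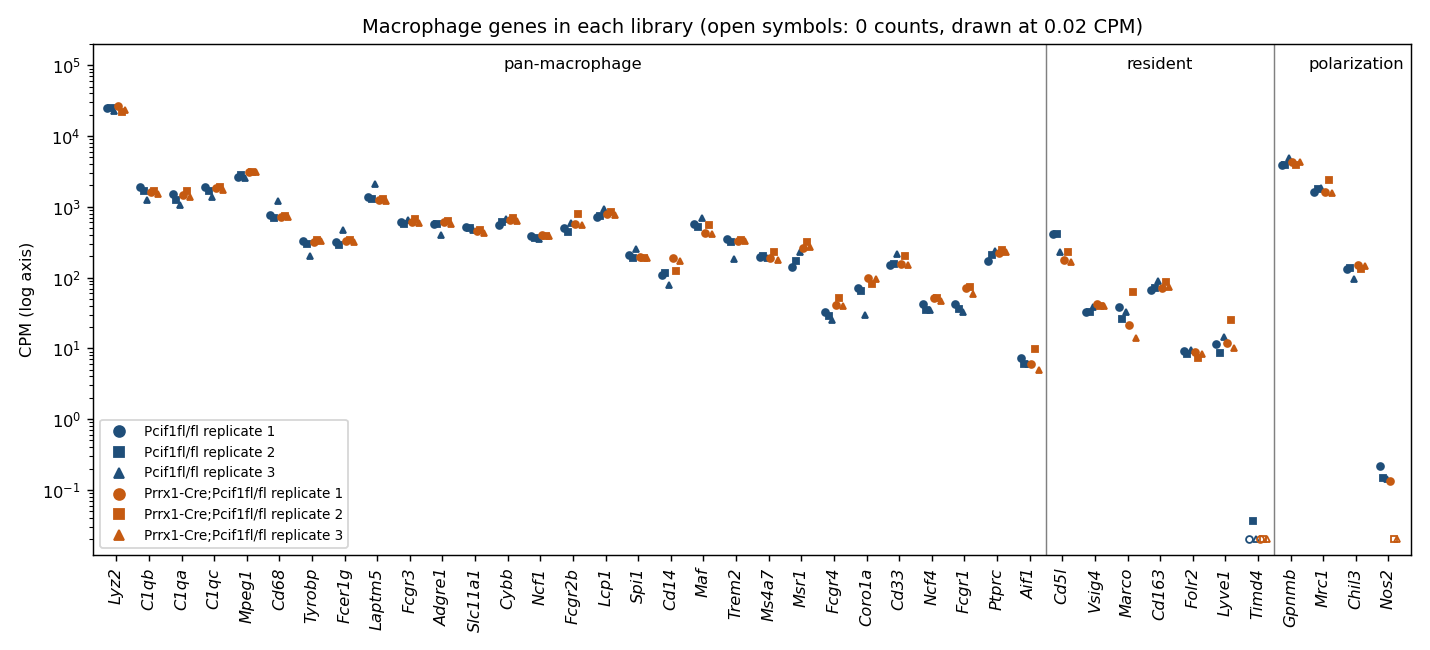
Level of each of the 40 genes (CPM, log axis) in each library, blue for Pcif1fl/fl and orange for Prrx1-Cre;Pcif1fl/fl, ordered within each class by the mean level per kilobase. Lyz2 stands highest in every library, while Timd4 and Nos2, at the right of their classes, hold 5 counts or fewer in each.

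To ask whether macrophage genes differed between the genotypes, all genes that passed edgeR's filter on low counts were tested together. Of the 40 macrophage genes 38 were tested, and 2 of them were higher in Prrx1-Cre;Pcif1fl/fl at an adjusted p under 0.05, namely Fcgr1 and Fcgr4. Over all 13733 genes tested 2.88% were higher and 4.51% lower, so that 5.26% of the macrophage genes passed in either direction against 7.40% of all genes. No macrophage gene was lower in edgeR's test. At an unadjusted p under 0.05, 1 was lower and 7 were higher, against 11.8% and 9.56% of all genes. DESeq2 gave 1 as lower and 5 as higher, against 5.26% and 3.76% of all genes it adjusted, and limma-voom gave 0 and 2, against 4.20% and 2.85%. The median log2 fold change of the 38 genes was 0.092, against 0.0017 over all genes tested. For 32 of the 38 the log2 fold change was smaller than 0.5 in size, and for 31 the 95% interval lay wholly within 2-fold in either direction. With the additional requirement of a 2-fold change, which 2.50% of all genes met as lower and 1.03% as higher, no macrophage gene remained of the 2 that had passed.

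Levels did not overlap between the genotypes for 10 of the 38 genes. Every Prrx1-Cre;Pcif1fl/fl library lay above every control library for 9 of them, which held for 15.0% of all genes tested, and below for 1, Slc11a1, which held for 15.7%. Besides the 2 genes that passed, the 9 were Adgre1, Cd14, Coro1a, Mpeg1, Msr1, Ncf4 and Vsig4. The other 28 genes overlapped.

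**Figure D3:**
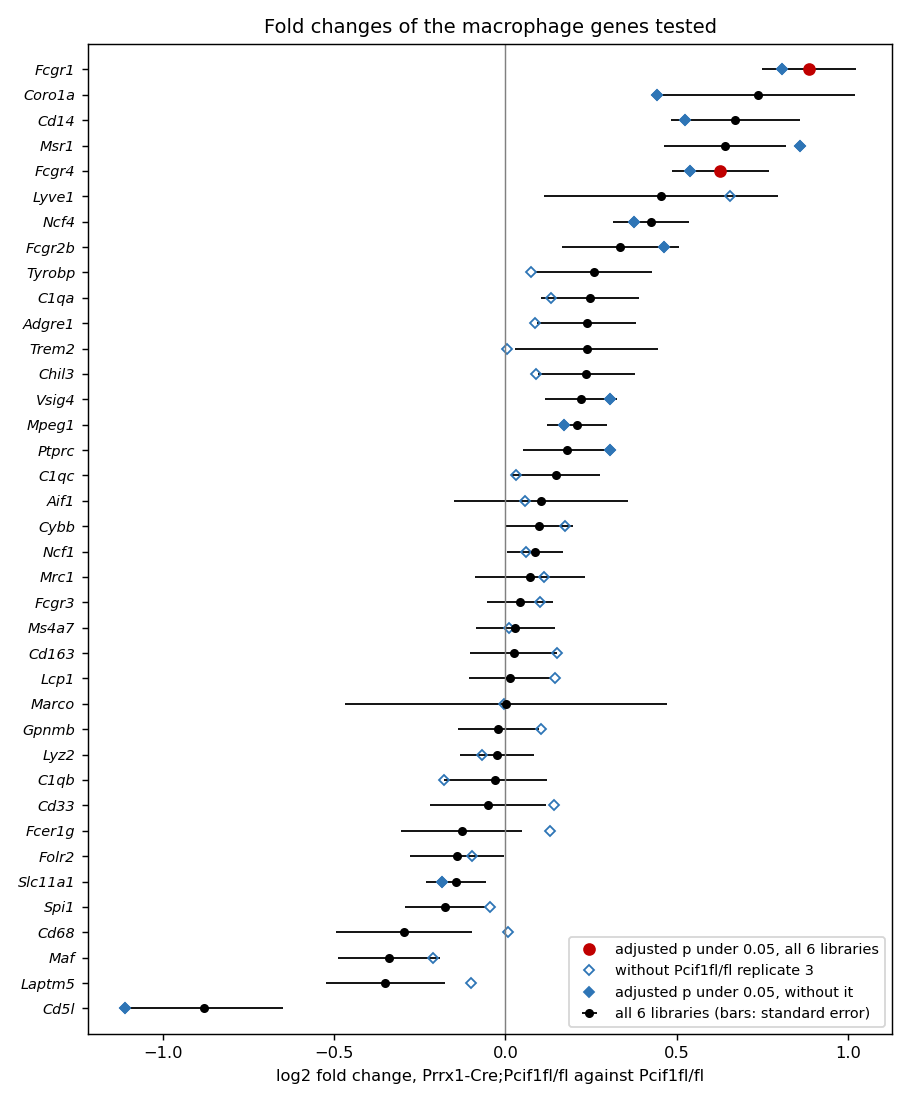
Log2 fold change of each of the 38 macrophage genes tested, Prrx1-Cre;Pcif1fl/fl against Pcif1fl/fl, with bars for the standard error (edgeR, 3 libraries a genotype); red points passed at an adjusted p under 0.05 with all 6 libraries, and blue diamonds give the value without Pcif1fl/fl replicate 3, filled where it passed. Fcgr1 and Fcgr4 are the red points, and Cd5l at the bottom is filled without that library.

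Both genes that passed encode receptors for the Fc part of IgG. Fcgr1, which encodes the high-affinity receptor CD64, stood at 42.9, 35.5 and 32.6 CPM in the controls and at 71.7, 74.1 and 59.4 CPM in the knockouts. Every knockout library lay above every control library, and the mean was 37.0 ± 5.32 CPM (SD, n = 3) against 68.4 ± 7.90 CPM (SD, n = 3). Fcgr1 was 1.85-fold higher, with a log2 fold change of 0.89 ± 0.14 (SE) and an adjusted p of 0.00605 in edgeR's test, and it passed in each of the 13 alternative fits, with adjusted p-values up to 0.0423. Fcgr4, the activating receptor for IgG2a and IgG2b, was at 32.1, 28.4 and 24.7 CPM in the controls and at 41.4, 50.9 and 39.4 CPM in the knockouts, again without overlap. It was 1.54-fold higher, with a log2 fold change of 0.63 ± 0.14 (SE) and an adjusted p of 0.0326 in edgeR's test. Fcgr4 no longer passed without Pcif1fl/fl replicate 2 or without any of the knockout replicates, with adjusted p-values between 0.0722 and 0.136 in that test. Fcgr1 lies on chromosome 3 (chr3:96282909-96293969, minus strand, mm10) and Fcgr4 on chromosome 1 (chr1:171018920-171029761, plus strand), within the same cluster as Fcgr2b and Fcgr3.

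The neighbours of Fcgr4 did not pass. Fcgr3, a low-affinity activating receptor, was at 610.5, 566 and 655 CPM in the controls and 619, 676 and 592 CPM in the knockouts, with a log2 fold change of 0.043 ± 0.10 (SE) and an adjusted p of 0.839 in edgeR's test. Fcgr2b, the inhibitory receptor, was at 496, 438 and 594 against 566, 804 and 559 CPM, with a log2 fold change of 0.34 ± 0.17 (SE) and an adjusted p of 0.304 in edgeR's test. Parts of Fcgr2b and Fcgr3 are near-identical and 2.68% of the exonic bases of Fcgr2b overlap an antisense gene, so their counts are uncertain. The shared signalling chain of the activating receptors, Fcer1g, was at 314, 288 and 475 CPM and 330.0, 335 and 320.3 CPM, and Pcif1fl/fl replicate 3 lay above all other libraries. Fcgr1 can also be set against Fcgr3 within each library. Counts of Fcgr1 per count of Fcgr3 were 0.0703, 0.0627 and 0.0498 in the controls and 0.116, 0.110 and 0.100 in the knockouts, every knockout above every control. Fcgr1 by itself did not overlap either and Fcgr3 hardly changed, so the ratio repeats the difference of Fcgr1. Such ratios were not computed across all genes.

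The DNA just upstream of these genes was read from the RefSeq promoter table, build GRCm38.p6, which held 36 start sites for 30 of the 40 genes. The core word bound by PU.1, GAGGAA on either strand, was in the 250 bases upstream of 17 of these 36 start sites (47.2%), against 23.3% of all 32851 promoters in the table, and the interferon-γ-activated site TTCNNNGAA, a palindrome, was in 3 of 36 (8.33%), those of Fcgr1, Chil3 and Ncf1, against 7.02%. These matches describe letters and not bound sites, and the words do not overlap each other in the stretches shown. The 150 bases that end at the start site are given for the tested Fc receptor genes that passed and for Cd5l, the gene with the lowest fold change, each 5′ to 3′ on the strand of its gene, with the matched words in capitals. For Fcgr1 (chr3:96293970-96294119, minus strand) the capitals mark TTCCCAGAA, which starts 109 bases before the start site, and TTCCTC, the reverse complement of the PU.1 word, 55 bases before it. For Fcgr4 (chr1:171018776-171018925, plus strand) and Cd5l (chr3:87357731-87357880, plus strand) they mark TTCCTC at 22 and 66 bases.
Fcgr1: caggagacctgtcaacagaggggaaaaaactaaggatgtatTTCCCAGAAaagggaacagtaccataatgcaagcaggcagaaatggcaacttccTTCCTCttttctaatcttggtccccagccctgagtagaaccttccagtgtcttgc
Fcgr4: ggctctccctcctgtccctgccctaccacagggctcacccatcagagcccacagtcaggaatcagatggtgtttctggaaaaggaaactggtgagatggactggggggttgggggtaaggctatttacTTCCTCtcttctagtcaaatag
Cd5l: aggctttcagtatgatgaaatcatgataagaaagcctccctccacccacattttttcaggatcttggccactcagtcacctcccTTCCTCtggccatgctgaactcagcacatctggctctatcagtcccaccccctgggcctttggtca
The word of PU.1 was thus common to all 3 stretches, to the gene that lay lowest as well as to those that passed. PCIF1 acts on mRNAs whose first transcribed base is A, and the table starts with A at 16 of the 36 macrophage start sites (44.4%) against 34.4% of all promoters, that of Fcgr1 among them and those of Fcgr4 (G) and Cd5l (T) not. Table starts are annotated and were not measured in these cells.

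Adgre1, Cd68, Laptm5, Ptprc, Mpeg1, Aif1, Cd33 and Ms4a7 did not pass in edgeR's test with all 6 libraries. Adgre1, which encodes F4/80, was at 568, 564 and 393 CPM in the controls and 602, 625 and 571 CPM in the knockouts, with a log2 fold change of 0.24 ± 0.14 (SE) and an adjusted p of 0.398 in edgeR's test. Cd68, a lysosomal glycoprotein, was at 757, 695 and 1227 CPM against 722, 749 and 711 CPM, and its log2 fold change was -0.30 with all libraries and 0.0060 without Pcif1fl/fl replicate 3, the only library that stood above 1000 CPM. Laptm5, a lysosomal membrane protein of blood cells, was likewise highest in that library, at 1387, 1278 and 2079 CPM against 1235, 1288 and 1198 CPM. Ptprc, which encodes the pan-leukocyte antigen CD45, was at 171, 206 and 240.0 CPM and 223, 245 and 230.1 CPM, so both genotypes carried leukocyte RNA at overlapping levels. Mpeg1, the pore-forming perforin-2, was at 2679, 2817 and 2519 CPM and 3093, 3109 and 3063 CPM, above the controls in every knockout library, with a log2 fold change of 0.21 ± 0.088 (SE) and an adjusted p of 0.219 in edgeR's test. Aif1, the actin-binding IBA1, was between 5.99 and 7.25 CPM in the controls and between 4.91 and 9.81 CPM in the knockouts. Cd33 and Ms4a7, a sialic-acid-binding receptor and a membrane protein of macrophages, had log2 fold changes of -0.050 and 0.028.

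The adaptor Tyrobp (DAP12) and its lipid-sensing partner Trem2 shared their lowest library. Tyrobp was at 328, 301 and 199.8 CPM in the controls and 319.8, 341 and 329.6 CPM in the knockouts, and Trem2 was at 351, 315 and 184 CPM and 327, 342 and 332 CPM. Pcif1fl/fl replicate 3 lay lowest for both, and the other 5 libraries lay within 301 to 341 CPM for Tyrobp and 315 to 351 CPM for Trem2. Without that library the log2 fold changes were 0.073 and 0.0055, and neither passed with it or without it.

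The 3 chains of complement C1q, which tags debris for uptake, are encoded side by side on chromosome 4. C1qa was at 1527, 1245 and 1063 CPM in the controls and 1478, 1679 and 1391 CPM in the knockouts, C1qb at 1933, 1683 and 1266 CPM and 1599.9, 1687 and 1497 CPM, and C1qc at 1901, 1656 and 1354 CPM and 1820.0, 1894 and 1726 CPM. Levels overlapped for all 3 genes, and their adjusted p-values in edgeR's test were 0.377, 0.934 and 0.565. Ratios within a library did not overlap. C1qa counts per C1qb count were 0.790, 0.740 and 0.840 in the controls and 0.924, 0.995 and 0.929 in the knockouts, and C1qc counts per C1qb count were 0.983, 0.984 and 1.07 against 1.14, 1.12 and 1.15. No test of such ratios across all genes was run.

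Msr1, Cd14 and Coro1a lay above the controls in every knockout library without passing. Msr1, the scavenger receptor A, was at 141, 170.1 and 231 CPM in the controls and 258, 318 and 269 CPM in the knockouts, without overlap, with a log2 fold change of 0.64 ± 0.18 (SE) and an adjusted p of 0.0678 in edgeR's test. Cd14, the co-receptor for lipopolysaccharide, was at 109, 116 and 79.2 CPM and 187, 123 and 173 CPM, again without overlap, with a log2 fold change of 0.67 ± 0.19 (SE) and an adjusted p of 0.0718. Both passed with DESeq2, with adjusted p-values of 0.0119 and 0.0123, and without Pcif1fl/fl replicate 3. Coro1a, the leukocyte coronin, had 72.2, 64.6 and 29.8 CPM in the controls and 99.3, 81.7 and 96.5 CPM in the knockouts, and the value of 29.8 CPM in Pcif1fl/fl replicate 3 widened the spread, with a log2 fold change of 0.74 ± 0.28 (SE) and an adjusted p of 0.174.

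The phagocyte oxidase, which makes superoxide in the phagosome, changed in none of the 3 subunits by edgeR's test, and Ncf4 alone had an unadjusted p under 0.05. Cybb, the catalytic subunit, was at 558, 615 and 678 CPM against 658, 686 and 636 CPM, and Ncf1, a cytosolic organiser with 11.1% of its exonic bases overlapping an antisense gene, at 381, 367 and 351 CPM against 395, 391 and 381 CPM. Ncf4, the p40 subunit, was at 42.0, 35.2 and 34.4 CPM in the controls and 50.8, 51.5 and 47.3 CPM in the knockouts, without overlap, with a log2 fold change of 0.42 ± 0.11 (SE) and an adjusted p of 0.0560 in edgeR's test. Its adjusted p was 0.0173 with DESeq2, so the call for Ncf4 depended on the tool. Slc11a1, the metal transporter of the phagosome, was at 519.6, 503 and 465 CPM and 450.4, 464 and 432 CPM, every knockout below every control, with a log2 fold change of -0.14 ± 0.087 (SE) and an adjusted p of 0.394. Lcp1, the actin-bundling L-plastin, was at 708, 732 and 923 CPM and 782, 839 and 761 CPM with a log2 fold change of 0.012 that turned to -0.0082 under total-count scaling.

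The transcription factors overlapped between the genotypes. Spi1, which encodes PU.1, was at 207, 192 and 255 CPM and 197, 189 and 192 CPM, with a log2 fold change of -0.18 ± 0.12 (SE) and an adjusted p of 0.435 in edgeR's test. Maf was at 571, 522 and 695 CPM and 433, 562 and 419 CPM, with a log2 fold change of -0.34 ± 0.15 (SE) and an adjusted p of 0.235 in edgeR's test and 5.34% of its exonic bases overlapping an antisense gene. Neither factor passed, and the highest level of both was in Pcif1fl/fl replicate 3.

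Lyz2 itself did not differ beyond its spread. It was at 24953, 25242 and 22767 CPM in the controls and 26233, 21980.5 and 23487 CPM in the knockouts, with a log2 fold change of -0.025 ± 0.11 (SE) and an adjusted p of 0.918 in edgeR's test and a 95% interval from -0.27 to 0.22. Over all 29 pan-macrophage genes, 2 passed as higher and 0 as lower in edgeR's test and with limma-voom, 5 and 0 with DESeq2, and 7 and 0 lay at an unadjusted p under 0.05. Over all genes the shares that were higher were 2.88% with edgeR, 2.85% with limma-voom, 3.76% with DESeq2 and 9.56% at an unadjusted p. Their median log2 fold change was 0.10.

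Resident-macrophage genes did not pass in edgeR's test in either direction, with 1 at an unadjusted p under 0.05, and 1 and 0 passed as lower with DESeq2 and limma-voom, against 11.8%, 5.26% and 4.20% of all genes. That gene was Cd5l, which encodes a secreted apoptosis inhibitor of macrophages. Cd5l was at 412, 409 and 228 CPM in the controls and at 175, 231 and 165 CPM in the knockouts. Controls 1 and 2 lay far above every knockout library, while control 3 lay at the level of the highest knockout library, so that the groups overlapped. It had a log2 fold change of -0.88 ± 0.23 (SE) and an adjusted p of 0.0582 in edgeR's test, an adjusted p of 0.00325 with DESeq2, and a log2 fold change of -1.11 with an adjusted p of 1.30e-06 without Pcif1fl/fl replicate 3, by edgeR.

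The other resident genes lay close together or were set by 1 library. Cd163, the scavenger of haemoglobin, was at 67.6, 71.0 and 88.1 CPM and 71.7, 85.3 and 73.5 CPM, and Vsig4, a complement receptor, at 33.1, 32.3 and 38.3 CPM and 41.8, 39.2 and 39.8 CPM, where the knockouts lay above the controls by a log2 fold change of 0.22 that did not pass. Folr2, the folate receptor β, was at 9.04, 8.31 and 9.39 CPM and 8.73, 7.32 and 8.18 CPM, but 63.1% of its exonic bases overlap an antisense gene, and the counting is not known to use strand. Lyve1, a hyaluronan receptor, was at 11.4, 8.60 and 14.3 CPM and 11.8, 25.1 and 10.2 CPM, and Marco, a scavenger receptor with collagenous structure, at 38.7, 26.4 and 32.1 CPM and 21.0, 62.0 and 14.2 CPM. Prrx1-Cre;Pcif1fl/fl replicate 2 was the highest of all 6 libraries for both, and the log2 fold change of Marco was 0.00050 ± 0.47 (SE) with an adjusted p of 1.00 in edgeR's test, with values from -0.87 to 0.36 over the alternatives. Over the 6 resident genes tested the median log2 fold change was 0.012.

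**Figure D4:**
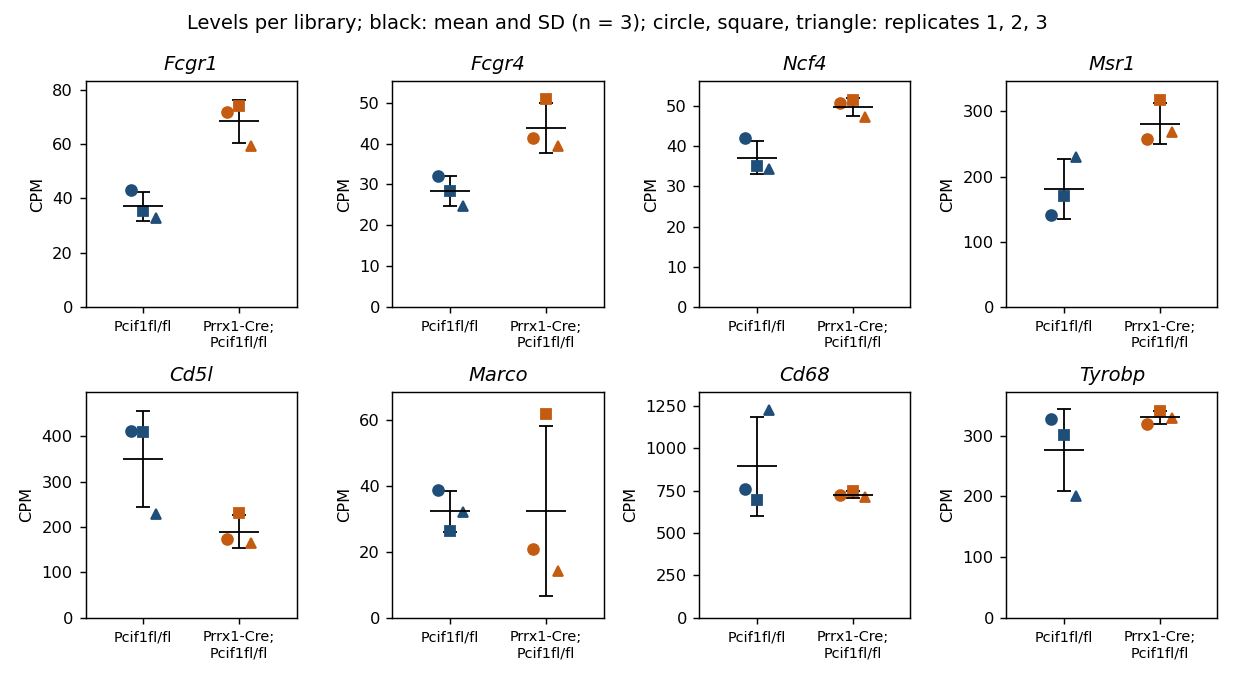
Level (CPM, linear axis from 0) of 8 macrophage genes in each library, with the mean and SD of 3 libraries in black. Fcgr1, Fcgr4, Ncf4 and Msr1 do not overlap between the genotypes, Pcif1fl/fl replicate 3 stands apart from the other controls for Cd5l, Cd68 and Tyrobp, and Marco is spread widely over the knockouts.

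None of the 3 polarization genes tested passed in edgeR's test, 0 had an unadjusted p under 0.05, and 0 passed with DESeq2 or limma-voom. Of all genes 7.40% passed in either direction with edgeR, so 0 of 3 tells nothing particular about these genes. Nos2, the inducible nitric oxide synthase used as a marker of classical activation, was at 5 counts or fewer in every library and was not tested.

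The genes tested were Mrc1, Chil3 and Gpnmb. Mrc1, the mannose receptor CD206, was at 1634, 1794 and 1856 CPM in the controls and 1605, 2366 and 1583 CPM in the knockouts, with a log2 fold change of 0.072 ± 0.16 (SE) and an adjusted p of 0.838 in edgeR's test. Chil3, the chitinase-like Ym1, was at 133, 138 and 95.6 CPM and 149.9, 134 and 148 CPM, with a log2 fold change of 0.24 ± 0.14 (SE) and an adjusted p of 0.391. Gpnmb, a glycoprotein of lipid-laden macrophages that osteoblasts also express, was at 3898, 3866 and 4894 CPM and 4292, 3920.4 and 4266 CPM, with a log2 fold change of -0.021 ± 0.12 (SE) and an adjusted p of 0.940. Levels of all 3 overlapped between the genotypes, and the median of their log2 fold changes was 0.072.

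Because the libraries may differ in macrophage content, each gene was also set against the mean log2 CPM of the 29 pan-macrophage genes in the same library. That mean was 8.45, 8.37 and 8.37 in the controls and 8.56, 8.66 and 8.49 in the knockouts, above the controls in every knockout library. Relative to it, Fcgr1 was 0.72 log2 units above its control mean in the knockouts, Fcgr4 0.45 and Ncf4 0.26, each without overlap between the genotypes. Relative to the same mean, Cd5l had a difference of -1.02, Maf of -0.52, Laptm5 of -0.49 and Cd68 of -0.42 log2 units, also without overlap. The differences of Spi1, Folr2, Slc11a1, Fcgr3 and Ncf1, between -0.34 and -0.086, were without overlap too. On this scale 30.2% of all genes tested lay below the controls in every knockout library and 5.30% above, since the mean itself was higher in each knockout library, and the pan-macrophage genes are part of the mean. Cd5l thus lay below every control library on this scale, where by CPM it overlapped with Pcif1fl/fl replicate 3.

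The number of macrophage genes that passed depended on Pcif1fl/fl replicate 3. It lay more than 0.5 log2 units from both other controls for 8 of the 38 genes (21.1%), namely Adgre1, Cd5l, Cd68, Coro1a, Fcer1g, Laptm5, Trem2 and Tyrobp, and for 21.2% of all genes tested. Prrx1-Cre;Pcif1fl/fl replicate 2 lay that far from both other knockouts for 5 genes (13.2%), Aif1, Fcgr2b, Lyve1, Marco and Mrc1, and for 4.89% of all genes. Without Pcif1fl/fl replicate 3, 10 macrophage genes passed as higher (Fcgr1, Fcgr2b, Fcgr4, Cd14, Mpeg1, Ptprc, Msr1, Ncf4, Coro1a and Vsig4) and 2 as lower (Cd5l and Slc11a1). Of those that had not passed with all 6 libraries, the log2 fold changes without it were 0.86 for Msr1, 0.52 for Cd14, 0.46 for Fcgr2b, 0.44 for Coro1a, 0.38 for Ncf4, 0.31 for Ptprc, 0.30 for Vsig4, 0.17 for Mpeg1, -0.18 for Slc11a1 and -1.11 for Cd5l. Their adjusted p-values in edgeR's test ran from 1.30e-06 for Cd5l to 0.0398 for Mpeg1. Over all 13905 genes then tested 11.1% passed as higher and 10.4% as lower. The part of the higher mitochondrial share of that library in these values was not tested.

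A further 42 symbols of macrophage and monocyte genes were looked up in the same fit, where they matched 43 gene identifiers because Lilrb4a had 2. The list was chosen with earlier results of these data known, and the part of that choice in the shares below was not tested. Of the 39 genes tested in this list, 6 passed as higher and 1 as lower by edgeR's test (17.9%, against 7.40% of all genes), with a median log2 fold change of 0.18. The 6 became 15 without Pcif1fl/fl replicate 3, 2 without Pcif1fl/fl replicate 2 or Prrx1-Cre;Pcif1fl/fl replicate 1, and 3 without each of the other libraries in turn. Over all genes tested the 396 that were higher became 1544 without control replicate 3 and from 148 to 293 without each of the other libraries. Plek, the pleckstrin of blood cells, was at 399, 515 and 556 CPM in the controls and 1045, 1073 and 1019.6 CPM in the knockouts, with a log2 fold change of 1.09 ± 0.13 (SE) and an adjusted p of 0.00156 in edgeR's test. Cd300lf, an inhibitory receptor, was at 27.3, 26.9 and 23.2 CPM and 51.7, 59.2 and 43.3 CPM, with a log2 fold change of 0.99 ± 0.14 (SE) and an adjusted p of 0.00351. The other 4 that were higher were Cx3cr1, Itgax, Clec12a and Lilrb4a, with log2 fold changes between 0.60 and 1.24. Clec10a, a lectin of alternatively activated macrophages and dendritic cells, was lower, at 19.1, 17.6 and 14.3 CPM against 7.25, 7.07 and 5.68 CPM, with a log2 fold change of -1.35 ± 0.17 (SE) and an adjusted p of 0.00196 in edgeR's test. Every knockout library lay above every control for 16 of the 39 genes and below for 4, against 15.0% and 15.7% of all genes. Among the 4 was Csf1r, the receptor for the growth factor on which macrophages depend, at 1244, 1175 and 1090.0 CPM in the controls and 1002, 992 and 940.5 CPM in the knockouts, with a log2 fold change of -0.26 ± 0.090 (SE) and an adjusted p of 0.141 in edgeR's test. The summed level of this list was between 11341 and 11567 CPM in the controls and between 13027 and 13864 CPM in the knockouts and did not overlap, although that of the 40 genes did. The largest differences between the means came from the lysosomal protease Ctss, at 2247, 2346 and 1713 CPM and 3069.7, 2728 and 2855 CPM, which did not pass, and from Plek.

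Osteoclasts arise from the same precursors as macrophages, and their genes were at modest levels. The 11 osteoclast genes summed to between 311 and 345 CPM in the controls and between 373 and 404 CPM in the knockouts. None of the 8 tested passed in edgeR's test, 3 had an unadjusted p under 0.05 and were higher, against 9.56% of all genes, and 1 and 0 passed as higher with DESeq2 and limma-voom, against 3.76% and 2.85%. The 3 were Atp6v0d2, a proton pump subunit, at 34.9, 46.3 and 71.6 CPM in the controls and 96.9, 70.2 and 95.6 CPM in the knockouts, the protease Ctsk at 114, 115 and 81.2 CPM and 134, 126 and 128 CPM, and Tnfrsf11a, the receptor RANK, at 70.5, 76.1 and 71.5 CPM and 83.6, 89.4 and 87.4 CPM. The knockouts lay above every control for Ctsk and Tnfrsf11a, while Atp6v0d2 overlapped. Nfatc1, a transcription factor of osteoclast formation, lay below every control, at 67.0, 70.2 and 101 CPM against 62.4, 63.3 and 62.4 CPM, without passing, and 3 of the 8 log2 fold changes were negative. The defining Calcr and Ocstamp were at or below 0.548 CPM in every library, and Acp5 was between 4.30 and 7.83 CPM. Of the 13 mesenchymal genes tested, 6 passed as lower, among them Cxcl12, Lepr and Sp7, and 3 as higher, Col1a1, Col1a2 and Thy1, against 4.51% and 2.88% of all genes, in the same libraries in which Lyz2 did not differ beyond its spread. Of the blood-cell lists beside the macrophage ones, S100a8 passed as higher, at 1.40 CPM or less, and Kit as lower, at 3.76 CPM or less, and their part in the macrophage values was not tested.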

How the data were processed

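Per the labels and the methods of the study, poly(A) RNA was sequenced as paired-end reads, and cleaned reads were aligned by the authors with HISAT2 (mouse build mm10). They deposited raw counts per gene for 6 libraries in a table of 20163 rows, of which 92 repeated a gene with the same counts and were dropped. The counting tool, its annotation, its use of strand and the origin of the libraries (animals or cultures) are not given in the sources used here, so p-values measure the spread between these libraries, and the design text speaks of duplicates where 3 libraries a genotype are labelled. Genes that passed filterByExpr (13733) were tested with edgeR 4.0.16 (TMM scaling, quasi-likelihood test, Benjamini-Hochberg adjustment over all genes, threshold 0.05; R 4.3.3). Standard errors were taken from the F statistic. CPM used the TMM factors, and levels per kilobase used exon lengths of GENCODE for the mm10 genome, held by 20059 of 20071 genes. The fit recovered 200 of 200 genes simulated with a log2 change of 2, larger than any change of a macrophage gene here, with 7 false calls among 13723. Alternatives were DESeq2 1.42.0, limma-voom (limma 3.58.1), other scalings and filters, the replicate block and leaving out each library. 1 macrophage gene of the set is not reported here, and each of the other 40 is named. The members and lists were chosen with earlier results of these data known, and the alternatives for the further macrophage list after seeing the data. Same-numbered libraries did not deviate together (correlations between -0.045 and 0.0554), so the numbers pair nothing.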

Additional observations from a re-analysis of the deposited data

How the results depend on the processing

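At an adjusted p under 0.05, Fcgr1 passed in each of the 13 alternative fits, and Fcgr4 in each that kept all 6 libraries. With a 2-fold change required, 343 genes were lower and 142 higher, and 0 macrophage genes were higher. DESeq2 gave 1 macrophage gene as lower and 5 as higher, and 1 of the further macrophage genes as lower and 10 as higher, against 5.26% and 3.76% of all genes. Without an expression filter 1 macrophage gene was lower and 4 were higher, against 712 and 441 of all genes, and the median of the polarization genes was 0.021. In the fit with the replicate block, 1 macrophage gene was lower, Cd5l, with a log2 fold change of -0.84, and the block changed no other call among the macrophage genes; the numbers do not pair the libraries. The log2 fold change of Marco, never past the threshold, was -0.28 with limma-voom, -0.021 with total-count scaling, -0.0054 without a filter and -0.28 with the block, and that of Lcp1 was -0.0082 with total-count scaling. The median of the resident genes was negative with limma-voom (-0.057), total-count scaling (-0.0088), no filter (-0.0054) and the block (-0.057). The cause was not tested.

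Leaving out each library in turn gave from 324 to 1447 genes lower and from 148 to 1544 higher, from 0 to 2 macrophage genes lower and from 1 to 10 higher (Fcgr1 alone without Pcif1fl/fl replicate 2 or any knockout replicate), and from 1 to 2 of the further list lower and from 2 to 15 higher, the high ends all coming without Pcif1fl/fl replicate 3. For the pan-macrophage genes the median ran from 0.084 to 0.18, for the polarization genes from 0.022 to 0.17 and for the resident genes, 0.012 with all libraries, from -0.073 to 0.14. Among genes that never passed, the sign turned for Marco (-0.87 to 0.36), Lyve1 (-0.052 to 0.69), Cd68 (-0.45 to 0.0060), Fcer1g (-0.26 to 0.13), Mrc1 (-0.14 to 0.17), C1qb (-0.18 to 0.11), Cd33 (-0.19 to 0.14), Aif1 (-0.23 to 0.30), Gpnmb (-0.079 to 0.10), Cd163 (-0.056 to 0.15), Fcgr3 (-0.010 to 0.099), Lyz2 (-0.092 to 0.033), Lcp1 (-0.057 to 0.14) and Ms4a7 (-0.099 to 0.11). Depth limits Nos2 and Timd4, with 5 counts or fewer in each library, and the floors cover counting error only.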
